A study of Caenorhabditis elegans with 10 samples.

Results

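nlp-8 is a Caenorhabditis elegans gene for a neuropeptide-like protein, a precursor from which short signalling peptides are cut. It was read by 1 probe set among 22548 non-control probe sets measured on each array, and its gene number in the deposited lists (172544) belongs to the protein-coding gene nlp-8 (locus D2005.2) on chromosome I in the RefSeq gene table of assembly WBcel235. Its nearest protein-coding neighbours in that table were D2005.6 on one side and D2005.3 on the other, and neither was named in the deposited lists. The array files name no genome build, so no coordinates are given. The gene was picked because it is the only neuropeptide gene with a name in those lists, and because the mutated gene of the study, nep-1, encodes a neprilysin.

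The study measured total RNA of whole worms on 10 one-colour Affymetrix arrays, from worms kept at 20 °C on NGM agar and fed the OP50 strain of Escherichia coli. Wild-type worms were N2 of the variety Bristol, and mutant worms carried a nep-1 allele isolated after EMS mutagenesis, whose lesion was not given. At larval stage L3 there were 2 wild-type and 2 nep-1 arrays, and at the adult stage 3 and 3, all titled biological replicates. No other allele or treatment was named, an adult age was not given, and the mutant's strain is named by one number on a larval array and by another on adult arrays, without word on whether these are the same strain.

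Neuropeptide precursors of the nlp class are cut at basic residues by proprotein convertases such as EGL-3, trimmed by carboxypeptidases such as EGL-21, packed into dense-core vesicles and released by neurons and some other cells. Neprilysins are zinc metallopeptidases that cleave short peptides, many of them outside the cell, so they act on the peptide and not on its transcript. The arrays measured the transcript alone. In whole worms, fewer cells that express a gene and less RNA per cell cannot be told apart.

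nlp-8 was detected at both sampled stages and in both genotypes, and lay above the median probe set of every array. It was called present on all 10 arrays in the authors' deposited tables, and it ranked between the percentiles 53.1 (adult wild-type 2) and 85.2 (adult mutant 1) of the probe sets of its array. On the log2 scale of the deposited RMA values, a measure that summarises the probes of a set after normalising the arrays together, the larval wild-type arrays read 7.28 and 7.19. The larval nep-1 arrays read 7.50 and 7.34. All 4 larval arrays thus lay within 0.31 of each other, with both mutants just above both wild types. The adult wild-type arrays read 6.60, 6.09 and 7.04. The adult nep-1 arrays read 8.998, 6.46 and 6.404. Adult nep-1 replicate 1 stood far above every other array, while the other two adult mutants lay between the adult wild types.

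**Figure D1:**
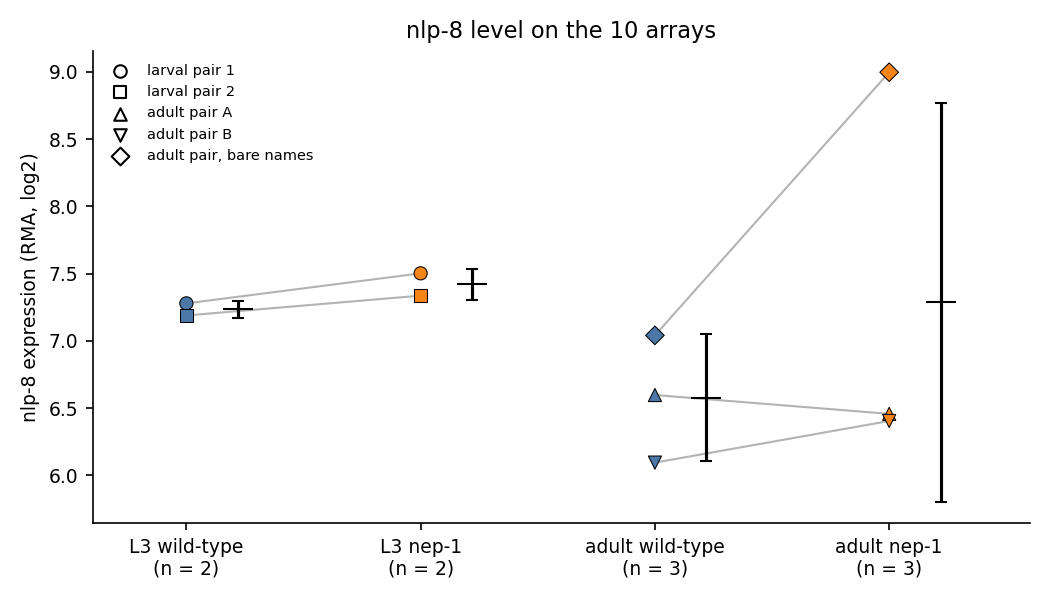
nlp-8 expression (log2 of the deposited RMA values) on each of the 10 arrays, by group. Symbols mark array pairs inferred from the names in the descriptions, and grey lines join a pair. The black marks beside the points give the group mean and SD. The 4 larval arrays lie between 7.19 and 7.50, 4 adult arrays between 6.09 and 6.60, and the pair with bare names at 7.04 and 8.998.

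By group mean the order was larval nep-1 at 7.42 ± 0.12 (SD, n = 2), adult nep-1 at 7.29 ± 1.48 (SD, n = 3), larval wild-type at 7.23 ± 0.06 (SD, n = 2) and adult wild-type at 6.58 ± 0.47 (SD, n = 3). The first 3 of these means lay closer together than the SD of the adult mutants. The adult mutant mean describes none of its arrays, because 1 array was 2.57 above the mean of the other 2. The step from larval to adult wild-type, the last in the order, was larger than either group's SD, and those arrays did not overlap. The groups hold 2 or 3 arrays each, and that number limits the precision of every value here.

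A pair of adult arrays differed from the other adults across the whole transcriptome, and both arrays were high for nlp-8. The descriptions name these arrays only NEP and WT, where the other adults carry the letters A or B. Adult mutant 1 and adult wild-type 3 were therefore taken as a pair with bare names. Mutant 2 and wild-type 1 were taken as the A pair, and mutant 3 and wild-type 2 as the B pair. No pairing is stated, so these description pairs are inferred from the style of the names. The mean correlation with the larval arrays across probe sets, a description over points that share an array, was 0.903 for adult wild-type 3 and 0.891 for adult mutant 1, against 0.830 to 0.837 for the other 4 adults. Over 5 worm control transcripts, the median log2 difference of the 3′ from the 5′ probe set, which reflects RNA quality, was 0.611 on adult mutant 1 and 0.246 on adult wild-type 3, and between −0.134 and 0.0697 on the other 8 arrays. Present calls were also highest on those arrays, 13939 and 13661 against 11184 to 13433. The part that these differences play in the nlp-8 level was not tested. Of the markers of worm tissues listed for a check of the samples, only rol-6, a cuticle collagen gene of the hypodermis, had a name in the files, and none of the neuron markers did. rol-6 read between 10.9 and 12.8 on the larval arrays, 10.6 on adult wild-type 3, and between 7.43 and 8.62 on the other adults, adult mutant 1 included.

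The larval comparison asked whether the nep-1 mutation shifts the L3 transcriptome, and nlp-8 was slightly higher in the mutant there. Both nep-1 arrays exceeded both wild-type arrays. The difference was 0.22 between the arrays numbered 1 (1.17-fold) and 0.15 between those numbered 2 (1.11-fold). The same pairs were inferred from the names in the descriptions. Both mutant arrays lay above both wild-type arrays for 1719 of 22548 probe sets, 7.62%. A difference at least as large as that of nlp-8 occurred for 7.93% of probe sets in pair 1 and for 34.5% in pair 2. The mean difference was 0.19 ± 0.77 (SE) with a 95% interval of −1.57 to 1.94 (adjusted p = 1, limma over all 10 arrays), and limma called 0% of probe sets in this contrast, with 150 at an unadjusted p under 0.05. That SE borrows the spread of the adult arrays, where nlp-8 varied most. In a fit of the larval arrays alone the SE was 0.23 and the interval −0.40 to 0.77 (limma adjusted p = 1). An exact two-sided permutation test of the 4 larval arrays gave p = 0.333, the smallest that 6 arrangements allow.

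The authors' own pair calls placed nlp-8 among the larval increases. In the authors' deposited table it was called increased in 3 of 4 pairs, with log2 ratios of 0.3 for mutant 1 over wild-type 1, 0.7 for mutant 1 over wild-type 2 and 0.4 for mutant 2 over wild-type 2. The call for mutant 2 over wild-type 1 was no change, with a log2 ratio of −0.1. Increased calls in at least 3 of the 4 pairs were found for 46 probe sets. The authors' larval list holds 44 increased probe sets, 0.195% of those measured, with nlp-8 among them. Its exact rule was not reproduced. The larval difference of nlp-8 was therefore part of what made its name available, and its direction on these arrays is not independent evidence. By the mean difference of the RMA values nlp-8 ranked 42 of the 44, whose larval differences ran from 0.01 to 1.36 with a median of 0.54, against a median of −0.04 over all probe sets. Both mutants lay above both wild types for 22 of the 44, against the 7.62% of all probe sets, but the list was picked by calls on these same 4 arrays, so nothing is read from that count.

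Among the probe sets of that list with a single gene name, those nearest to nlp-8 in rank of the larval difference were R11A8.1 at 0.32, the proton and myo-inositol transporter gene hmit-1.1 at 0.28 and the ribosomal S6 kinase-type gene rskn-1 at 0.26 above it. Below it came the adipose triglyceride lipase gene atgl-1 at 0.16 and K11G9.5 at 0.01, the last of the list. Among these 5, hmit-1.1 and rskn-1 also had both mutants above both wild types. None of the 5 was called by limma in larvae (adjusted p = 1 for each).

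The adult comparison gave no common direction for nlp-8. Within the A pair the mutant was 0.14 below the wild type, within the B pair 0.31 above it, and within the pair with bare names 1.96 above it (3.88-fold). The first 2 of these differences were of the size seen in larvae, and opposite in sign, and the adult groups overlapped. A difference of at least 1.96 occurred for 245 probe sets (1.09%) in the pair with bare names. Over all 6 adult arrays the mutant mean was 0.71 ± 0.63 (SE) higher, with an interval of −0.73 to 2.15 (limma adjusted p = 1), and limma called 0% of probe sets, with 69 at an unadjusted p under 0.05. The exact two-sided permutation test over the adult arrays gave p = 0.7, where 0.1 is the smallest p that 20 arrangements allow. Without adult mutant 1 the difference was −0.15 ± 0.27, and without the whole pair with bare names it was 0.08 ± 0.23, with an interval of −0.45 to 0.62 (limma adjusted p = 1 for both). The size of the adult difference thus rested on 1 array, and without it the value lay within its SE of 0.

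The authors' deposited table split in the same way. All 3 pairs with adult mutant 1 were called increased, with log2 ratios of 2.7, 3.5 and 1.9 over wild-type 1, 2 and 3. Mutants 2 and 3 were each called decreased against wild-type 3, with a log2 ratio of −1 both times, and not changed against wild-type 1 and 2, with ratios from −0.4 to 0.8. nlp-8 thus had 3 increased, 2 decreased and 4 unchanged calls of 9, and every call of a change in adults involved an array of the pair with bare names.

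**Figure D2:**
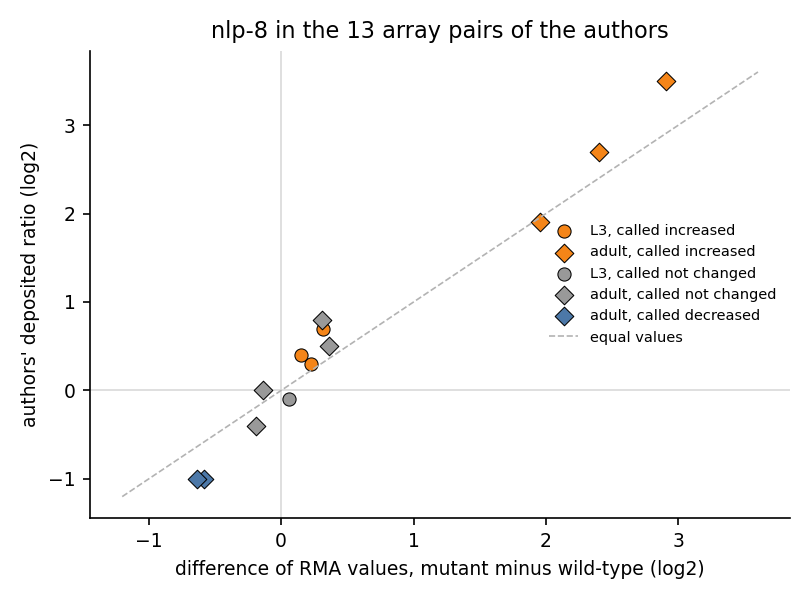
nlp-8 in the 13 mutant and wild-type array pairs of the authors' deposited tables: the difference of RMA values (x axis, log2) against the authors' ratio (y axis, log2), with circles for L3 pairs, diamonds for adult pairs, and colours for the authors' call. The 3 adult pairs with mutant 1 lie between 1.96 and 2.90 on the x axis, and the 2 decreased calls at −0.58 and −0.64, while all 4 larval pairs lie between 0.06 and 0.31.

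Across both stages the mutant exceeded its paired wild type in 4 of 5 description pairs, the exception being the A pair. Both larval pairs were called increased, and such calls underlie the list that made nlp-8 available. The count is therefore no independent evidence of a direction. An exact two-sided permutation test of the mean genotype difference, 0.45 with stages weighted equally and labels permuted within stages, gave p = 0.433 (smallest possible 0.0167 of 120 arrangements). It did not keep the pairs. The genotype difference was 0.52 ± 0.996 (SE) larger in adults than in larvae, with an interval of −1.75 to 2.79 (limma adjusted p = 1). limma called 0% of probe sets for this difference of differences, with 92 at an unadjusted p under 0.05. Its sign turned to −0.10 ± 0.32 without the pair with bare names. With the description pairs as a block, the adult genotype difference kept its size and had an SE of 0.38 (limma adjusted p = 0.937).

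Between stages, nlp-8 was lower in 5 of 6 adult arrays than in any larva. The 4 adults with letters averaged 6.39 ± 0.21 (SD, n = 4) and the 4 larvae 7.33 ± 0.13 (SD, n = 4), and all 4 larvae exceeded all 4 of these adults, as they did for 5520 probe sets (24.5%). Adult wild-type 3 lay 0.15 below the lowest larva, and adult mutant 1 lay 1.495 above the highest. In wild type both larval arrays exceeded all 3 adults, which held for 6561 probe sets (29.1%). Over all arrays the adult minus larval difference was −0.66 ± 0.70 (SE) in wild type (limma adjusted p = 0.553), −0.13 ± 0.70 in the mutant (limma adjusted p = 0.915) and −0.39 ± 0.50 for the mean of both (limma adjusted p = 0.562). None passed the threshold of 0.05, while limma called 16.3%, 16.9% and 35.6% of probe sets in these contrasts. The exact two-sided permutation test, with labels permuted within genotypes, gave p = 0.530 (smallest possible 0.01 of 100 arrangements).

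Without the pair with bare names, nlp-8 fell from larva to adult in both genotypes. The difference was then −0.89 ± 0.23 (SE) in wild type (limma adjusted p = 0.0232), −0.99 ± 0.23 in the mutant (limma adjusted p = 0.0159) and −0.94 ± 0.16 for the mean of both (limma adjusted p = 0.00272), a 1.92-fold lower level. Stage differences were common in that fit of 8 arrays, which called 31%, 30.9% and 47.2% of probe sets. Leaving out adult mutant 1 alone gave −0.99 ± 0.30 in the mutant (limma adjusted p = 0.0399) and −0.82 ± 0.20 for the mean (limma adjusted p = 0.0115), with 28% and 46.2% of probe sets called, and left wild type at −0.66 ± 0.27 (limma adjusted p = 0.111). The exact permutation test reached p = 0.0333 without adult mutant 1, and p = 0.0556 without the pair, the smallest that its 36 arrangements allow. The pair was left out by its names and not by its nlp-8 level, but with that level already known. Its arrays were also the adults that correlated most with the larvae. Leaving out such adults favours a stage difference, so the fit without the pair is not independent evidence of one. Adult mutant 1 is the array highest for nlp-8, so its removal alone was not independent of that level. The exact permutation test of stage without any other single adult array gave p from 0.4 (without adult wild-type 3) to 0.85 (without adult mutant 3).

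**Figure D3:**
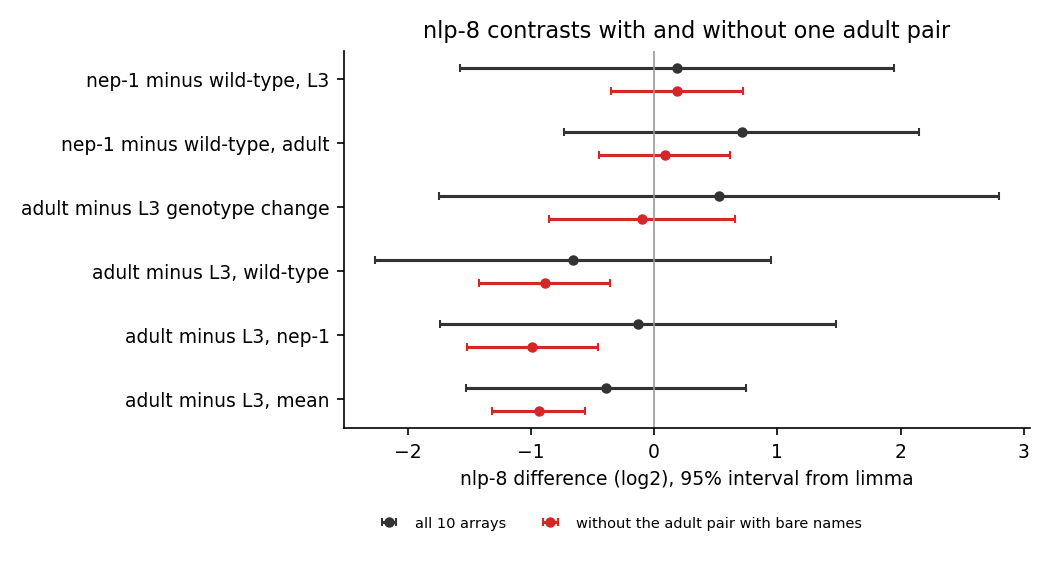
Estimated nlp-8 differences (log2) with 95% intervals from limma for the 6 contrasts, over all 10 arrays (black) and without the adult pair with bare names (red). The intervals of the 3 stage contrasts include 0 over all arrays and lie below 0 without the pair, and those of the genotype contrasts include 0 in both.

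The scaled signals of the authors' tables, a linear measure of brightness summarised separately for each array, gave the same order of adult arrays but not of larval ones. The larval wild types measured 320.2 and 238.8 and the larval mutants 463 and 299.4. These larval groups overlapped, since wild-type 1 exceeded mutant 2, which the RMA values did not show. The adult wild types measured 109.5, 55.4 and 201.6. The adult mutants measured 615.1, 99 and 87.4. Adult mutant 1 was thus 3.05-fold above adult wild-type 3 and 11.1-fold above the lowest adult. On log2 of the signal after adding 16, the mean adult minus larval difference was −1.11 ± 0.54 (limma adjusted p = 0.195), farther from 0 than on the RMA values. In the larvae the genotype difference was 0.41 ± 0.83 (limma adjusted p = 1).

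nep-1 itself showed another pattern between genotypes, but it too was lower in wild-type adults than in wild-type larvae. In RMA values it read 8.19 and 9.17 in larval wild types and 5.20 and 4.85 in larval mutants, then 6.01, 6.85 and 7.32 in adult wild types and 5.05, 5.10 and 5.42 in adult mutants. The mutant was lower in 5 of 5 description pairs. For nep-1 the genotype difference was −3.65 ± 0.45 (SE) in larvae (limma adjusted p = 0.603) and −1.54 ± 0.37 in adults. Neither was called by limma. Its adult minus larval difference was −1.95 ± 0.41 in wild type (limma adjusted p = 0.0162), which was called, and 0.16 ± 0.41 in the mutant (limma adjusted p = 0.82). Its detection call was absent in either larval mutant, and among adult mutants present on replicates 1 and 2 and marginal on replicate 3. Adult mutant 1, the highest array for nlp-8, read lowest of the adults for nep-1 by a narrow margin in RMA values, but its scaled signal of 93.6 was above those of the other adult mutants, 25.5 and 57.7, and of adult wild-type 1, 68.5. Across the 10 arrays the Pearson correlation between both genes was −0.15, given as a description.

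The high reading of adult mutant 1 was shared by other genes. It exceeded the highest of the other 5 adults by at least the 1.96 seen for nlp-8 in 200 probe sets (0.887%). All 4 larvae lay above those 5 adults for 4220 of 22548 probe sets. For 552 of these 4220, nlp-8 included, adult mutant 1 lay above all larvae as well. The 5 adults were set by leaving out the array highest for nlp-8, so nothing is read from these counts. The Pearson correlation with nlp-8 over the 10 arrays was at least 0.9 for 496 other probe sets (2.1998%). Without adult mutant 1 the count was 980 of the same probe sets. The profiles share arrays, so these are descriptions.

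Only 145 genes could be named from the deposited lists, all of them called changed by the study. Among the other 144 the profile most like that of nlp-8 in RMA values was F53A9.8. Its correlation was 0.95 (Spearman 0.90), and it read between 8.68 and 9.68 in larvae, between 7.80 and 8.74 in the adults with letters, 9.02 in adult wild-type 3 and 11.1 in adult mutant 1. Next came T07F12.4 at 0.90 (Spearman 0.81) and ZC204.12 at 0.89 (Spearman 0.87). On the scaled signals the order changed, with T07F12.4 at 0.96, ZC204.12 at 0.90 and F53A9.8 at 0.89. henn-1, which encodes the methyltransferase that protects the ends of small RNAs, had a correlation of 0.88 (Spearman 0.78). anc-1, which encodes a giant protein that anchors nuclei, had 0.87 (Spearman 0.67). nspe-1 at 0.78, ram-2 at 0.68 and ketn-1, a kettin-type muscle protein gene, at 0.67 completed the 8 highest. Adult mutant 1 was the highest of the 10 arrays for 7 of these 8, ram-2 being the exception. The genes were picked by likeness to a profile that peaks on that array, so nothing is read from that count. F53A9.8, T07F12.4, henn-1, anc-1 and ketn-1 stood on the authors' list of larval increases with nlp-8, as did fat-7, one of the opposite profiles. ZC204.12, nspe-1 and ram-2 stood on the authors' lists of larval decreases, as did C35A5.3, dhgd-1 and gst-10 of the opposite profiles. The list of increases held 29 of the 145 named genes. These lists were picked by calls on the larval arrays, which the correlation also uses, so the overlap is a description only.

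Without adult mutant 1 the correlation over 9 arrays was 0.89 for F53A9.8, 0.83 for T07F12.4 and 0.82 for ZC204.12, 0.66 for henn-1, 0.68 for anc-1, 0.64 for nspe-1, 0.74 for ram-2 and 0.45 for ketn-1. The adults with letters lay below all larvae for T07F12.4, ZC204.12 and henn-1, as for nlp-8, while for F53A9.8 the highest of them, 8.74, passed the lowest larva, 8.68. After the mean of each stage was subtracted, 5 of the 8 most similar genes were unchanged, with F53A9.8 first again at 0.95. The other 3 were F26A3.4 at 0.77, R11F4.1 at 0.77 and C15A11.7 at 0.77. Without adult mutant 1 their plain correlations with nlp-8 were −0.02, 0.22 and 0.14.

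The opposite profiles had their lowest value on adult mutant 1, which their selection by correlation with nlp-8 favours. C35A5.3 had a correlation of −0.92 (Spearman −0.92) and read 6.38 there against 8.92 to 9.62 in the adults with letters. dhgd-1, a hydroxyglutarate dehydrogenase gene, had −0.89 (Spearman −0.85). fat-7, which encodes a stearoyl-CoA desaturase, had −0.84 (Spearman −0.36) and read 8.004 on adult mutant 1 against 10.2 to 11.6 elsewhere. gst-10, a glutathione S-transferase gene, had −0.77 (Spearman −0.32). Without adult mutant 1 these fell in size to −0.83, −0.78, −0.40 and −0.08. The value of gst-10 thus rested on that array, and that of fat-7 did in large part. On the scaled signals the correlations, in the same order of genes, were −0.77, −0.71, −0.45 and −0.29.

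**Figure D4:**
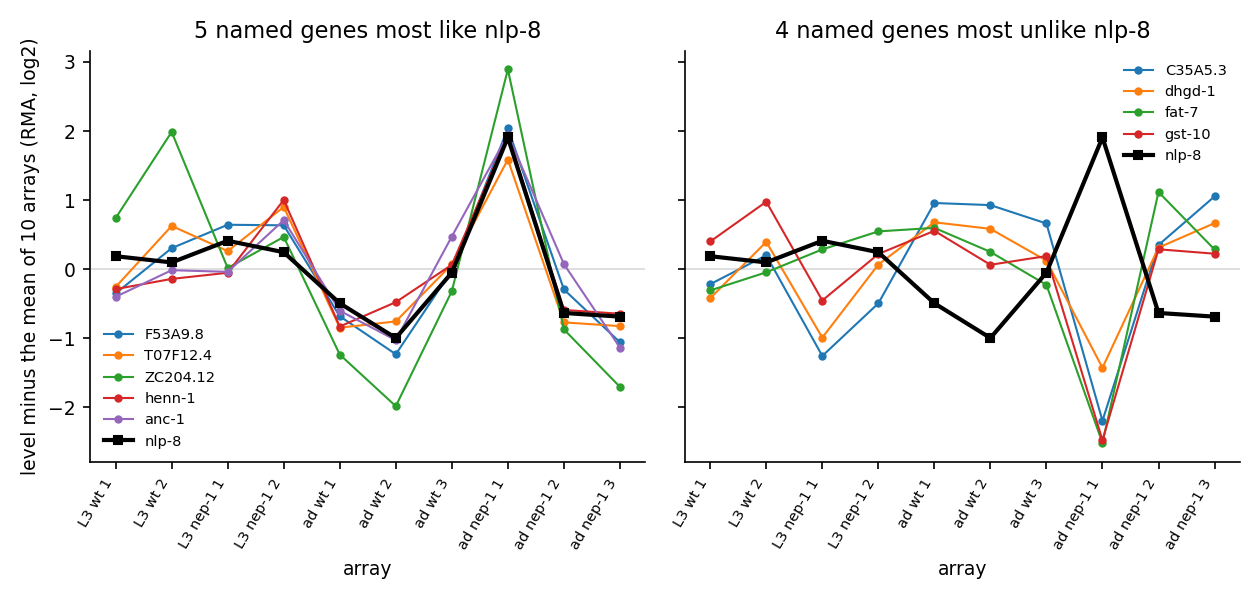
Profiles of nlp-8 (black) and of the named genes most like it (left) and most unlike it (right) over the 10 arrays, as RMA level minus the gene's mean (log2); "wt" is wild-type and "ad" is adult. The 5 genes on the left are highest on adult nep-1 replicate 1, as nlp-8 is, and the 4 on the right are lowest there. Picking them by correlation with nlp-8 favours this.

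The rest of the neuropeptide pathway could not be described from these files. Of the lists drawn up for it (other nlp genes, flp genes, insulin-like genes, precursor processing, dense-core vesicle release, peptide breakdown and neuropeptide receptors), nlp-8 was the only named precursor and nep-1 the only named peptidase. The other 5 lists had 0 named members.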

How the data were processed

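Expression was deposited on the log2 scale. RMA is the method named in the submitters' processing notes, with its version unstated. The scaled signal intensity, the detection call, the log2 ratio and the other entries (change calls) were taken from the authors' comparison tables, per the file headers, and the software behind them is not given in the sources used here. Another 40 columns (detection p-values, repeats and empty columns) were not used. The 77 control probe sets were left out and 22548 were fitted without renormalising. limma 3.58.1 (R 4.3.3) fitted a mean per group over all 10 arrays (6 residual and 2.57 prior degrees of freedom), with two-sided p-values adjusted by Benjamini-Hochberg over all probe sets of a contrast, and was tested on simulated data. For nlp-8 the residual SD was 0.90, and 0.77 after moderation, against a median residual SD of 0.35 over probe sets. The simulated shifts were placed only in probe sets of below-median SD, so that test does not cover nlp-8. Tables were read with Python 3.11.15.

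nlp-8, the lists and the alternatives were chosen with earlier results of these data known. Of 196 listed probe sets, 152 had a single gene, giving 145 names, with 1 probe set kept per gene, that of highest mean. The rule named nlp-8, nep-1, the 8 most and 4 least correlated genes over the arrays, the 8 most correlated after subtracting stage means, and up to 3 list neighbours on either side. Replicates are biological by title; nothing more says how cultures were separated. In adults, arrays of equal title number did not deviate together (correlations of deviations from group means −0.536, −0.222 and −0.652), while description pairs did (0.612, 0.647 and 0.623, and 0.561 in larvae). Adult arrays that shared neither had 0.144, −0.258 and −0.279. Deviations within a group sum to 0, so these values depend on each other. In larvae the other pairing is thereby fixed at −0.561.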

Additional observations from a re-analysis of the deposited data

How the results depend on the processing

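The 6 nlp-8 contrasts and both permutation tests kept their direction and their side of the threshold in 57 of 61 alternatives that left out no single array. The exceptions all came from leaving out the adult pair with bare names, which turned the difference between genotype changes to −0.10 and brought the stage differences to −0.89 in wild type, −0.99 in the mutant and −0.94 for the mean, each past the threshold. Leaving out each array in turn gave ranges of 0.10 to 0.27 for the larval genotype difference, −0.15 to 1.15 for the adult one, −0.33 to 0.96 for their difference, −0.89 to −0.41 for stage in wild type, −0.99 to 0.31 for stage in the mutant, −0.82 to −0.17 for the mean stage difference (also as a permutation statistic), and 0.02 to 0.67 for the permuted genotype difference. The ends at −0.15, −0.33, −0.99, −0.82 and 0.02 were those without adult mutant 1. Stage in the mutant was 0.28 without adult mutant 2 and 0.31 without adult mutant 3. The mean stage difference was −0.74 after quantile normalisation and −0.46 after median centring, and the larval genotype difference 0.34 and 0.23. The title numbers as a replicate block gave −0.29 for the mean stage difference, −0.03 for stage in the mutant, and it changed no call of nlp-8. Counts of called probe sets for stage in wild type, in the mutant and for the mean were 3681, 3810 and 8033, against 858, 572 and 3660 on the scaled signals, 2351 in wild type with title numbers as a block, 5169 for the mean with description pairs as a random block, 6994 and 6975 in wild type and mutant without the pair, and 1000 to 5686, 1336 to 6319 and 5358 to 10409 without single arrays. The share of those calls that were higher in adults was 66.1% in wild type, 64.7% in the mutant and 55.5% for the mean. It was 50.8%, 46.1% and 45.02% after quantile normalisation, 48.3% in the mutant after median centring, and 80.9% in wild type on the scaled signals. The median stage difference of all probe sets moved past 0.1 to −0.138 in the mutant and −0.127 for the mean after median centring, and lay between −0.184 and −0.167 on the scaled signals. Correlations with nlp-8 moved by more than their SD over left-out arrays in 26 of 60 alternatives, all added after the data had been seen, as were those of the permutation tests. The cause of these changes was not tested. nlp-8 was called present throughout. Its lowest scaled signal was 55.4, on adult wild-type 2, and the part that background plays in its lower signals was not tested.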
